A study of Zea mays with 4 samples.

Results

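A set of 66 maize genes stood at least 4 times higher in kernels labelled zmknl1 than in wild type (WT) kernels in every pairing of libraries. They were chosen from the measured values among 39625 gene IDs. A gene was taken if its mean over the 4 libraries was 5 CPM or more (CPM, read counts scaled to a common library size) and its lower zmknl1 value was at least 4 times its higher WT value. Of 13185 genes with such a mean, 72 met both limits, or 0.546%, and 6 of those were on a list of 10 left-out IDs. The mirrored rule, with zmknl1 lower, was met by 93 genes, or 0.705%. Because the same 4 libraries chose the genes, their differences between the genotypes are given below as a description and not as a test.

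RNA was sequenced from whole maize (Zea mays) kernels taken 14 days after pollination from plants grown in the field. The mutant group comprised 2 libraries of the zmknl1 mutant and the other group 2 libraries of wild type, each pair being biological replicates from different ears. The label names KNL1, a kinetochore protein on which the parts that bind the spindle assemble. The sources used here give neither the allele nor the inbred background of the groups. Gene counts per library came to 19704758 and 22725030 in zmknl1 and to 20640600 and 16595289 in WT.

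A kernel at this age holds a filling endosperm, with a basal transfer layer that takes up sugars, amino acids and ions from the mother plant, an outer aleurone, an embryo and remnants of maternal tissue. Potassium and sugars enter through membrane transporters of large gene families. Small antifungal proteins are made in the transfer layer, and benzoxazinoids are defence compounds of grasses that are stored as glucosides. The 66 genes touch each of these functions through a few named members, while most of them carry no name.

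The libraries did not stand equally close to each other, which bears on every value below. Among the 13185 genes with a mean CPM of 5 or more, 216 differed by over 4-fold between the zmknl1 libraries and 883 between the WT libraries. These 2 counts were not made on the plain CPM ratios used for the members further below. By plain ratios, 159 of the genes were over 4-fold higher in zmknl1 replicate 1 and 78 in zmknl1 replicate 2. WT replicate 2 had a TMM scaling factor of 0.707, and 23.9% of its reads aligned to several places and were not counted in genes, against 10.9 to 13.5% in the other libraries. Whole-kernel RNA cannot tell fewer cells of a type from less RNA per cell. Among the marker lists, 8 of 9 tested transfer layer genes lay above both WT libraries in both zmknl1 libraries, as did 22.2% of all tested genes, while 19.7% lay below. The list had summed levels of 238 and 162 CPM in zmknl1 and 48.4 and 61.6 CPM in WT. The transfer layer marker betl1 had 0 counts in all libraries. Embryo markers lay below in 5 of 7 tested genes, with 281 and 178 CPM in zmknl1 and 2968 and 733 CPM in WT, and lec1 was at 0 in all libraries. Starchy endosperm markers lay below in 7 of 10 tested genes, with 11336 and 16766 CPM in zmknl1 and 27101 and 51627 CPM in WT. Aleurone markers lay below in 4 of 6 tested genes, with 253 and 196 CPM in zmknl1 and 400.4 and 264 CPM in WT, and c1 was at 0 in all libraries. The embryo-surrounding region list summed to 3.91 and 7.67 CPM in zmknl1 and 0.262 and 14.2 CPM in WT, with 0 of 3 tested genes apart in either direction. The list of maternal pericarp and nucellus had 1 tested gene, zag1, and p1, pl1 and kwl1 were at 0 in all libraries. Its sum was 2.02 and 8.19 CPM in zmknl1 and 0.567 and 0.426 CPM in WT. The part of these cell types in the levels of the 66 genes was not tested.

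Together the 66 genes summed to 1849 and 1529 CPM in the zmknl1 libraries and to 97.1 and 124 CPM in the WT libraries. They made up 0.214 and 0.168% of all gene counts in zmknl1 and 0.0108 and 0.00874% in WT. Their median level was 21.5 and 15.2 CPM in zmknl1 and 0.698 and 1.19 CPM in WT. The higher WT value was under 1 CPM in 24 of the 66 genes. The zmknl1 means ran from 8.44 to 154 CPM, with a median of 16.2 CPM; the lower end follows from the limit on the mean. CPM is not corrected for transcript length, so these levels rank no gene above another in transcript number.

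**Figure D1:**
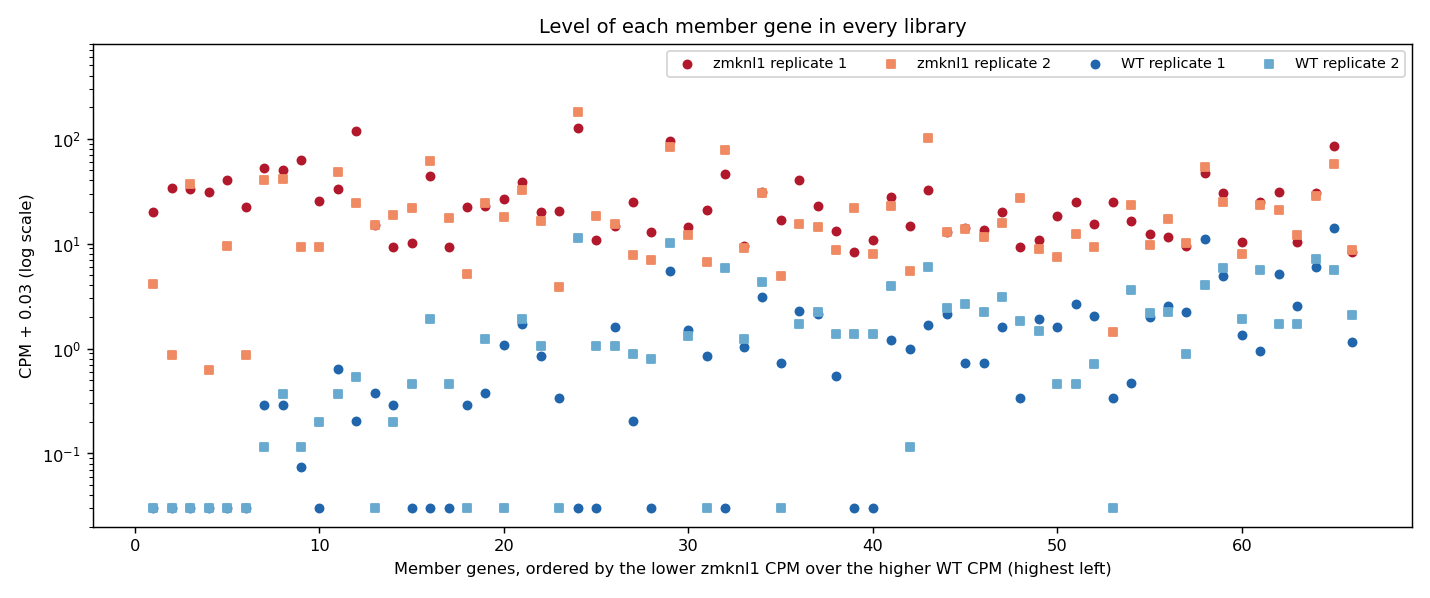
CPM of each of the 66 genes (x axis, ordered by the lower zmknl1 value over the higher WT value) in the 4 libraries, on a log axis after adding 0.03 CPM; zmknl1 libraries are red and orange, WT libraries dark and light blue. The lowest row of points marks values of 0: 16 genes were at 0 in WT replicate 1 and 13 in WT replicate 2, and none in zmknl1.

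The 66 genes fell into 3 ranges by their higher WT value. Of the 24 with both WT libraries under 1 CPM, 6 had no WT count at all. In 32 the higher WT value lay from 1 to 5 CPM, and in 10 it was 5 CPM or more. The lower zmknl1 value was 4.01 to 153 times the higher WT value in the 60 genes with a WT count, with a median of 6.69. That ratio is the smallest among the pairings of a zmknl1 with a WT library.

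edgeR's quasi-likelihood test, adjusted over all 19519 tested genes by Benjamini-Hochberg, called 3 of the 66 higher in zmknl1, where 0.0154% of all tested genes were so called. All 66 passed its filter and had an unadjusted p under 0.05, against 4.94% of all tested genes in that direction. DESeq2 called 58 of them, against 1.59% of genes called higher, and limma-voom called 0, with 61 at an unadjusted p under 0.05. The share of all tested genes called by limma-voom was 0%, with 2183 at an unadjusted p under 0.05. These counts rest on the contrast that chose the genes and say nothing further about them. The edgeR log2 fold changes had a median of 4.17 over the 66 genes and 0.01 over all tested genes.

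The 6 genes without a WT count had unequal levels in the mutant libraries. The unnamed gene GRMZM2G079962 measured 33.2 and 36.8 CPM in zmknl1, from 757 and 922 reads, and 0 in both WT libraries. It was at least 406-fold higher, taking 3 reads in the pooled WT libraries as the most that 0 allows. It is the only gene of the 6 whose zmknl1 libraries lay within 2-fold of each other. GRMZM2G116520 measured 40.6 and 9.55 CPM in zmknl1, and AC214360.3_FG001 measured 20.1 and 4.08 CPM. For these the bounds were 281-fold and 136-fold. From zmknl1 replicate 2 alone the bounds were 110-fold for GRMZM2G116520 and 47.1-fold for AC214360.3_FG001, and from replicate 1 alone 469-fold and 233-fold.

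In the other 3 of these genes nearly all reads came from zmknl1 replicate 1. GRMZM2G028306 had 774 and 21 reads in zmknl1, or 34.0 and 0.839 CPM. GRMZM2G092474 had 702 and 15 reads, or 30.8 and 0.600 CPM. GRMZM2G127418, named BX14, had 507 and 21 reads, or 22.3 and 0.839 CPM. Against the same limit these were at least 192-fold, 173-fold and 128-fold higher. From zmknl1 replicate 2 alone the bounds were 9.70-fold for GRMZM2G028306, 6.93-fold for GRMZM2G092474 and 9.70-fold for BX14, and from replicate 1 alone 393-fold, 356-fold and 257-fold. Most of the size of these differences thus came from 1 mutant library. Over the 6 genes the bounds ran from 128-fold to 406-fold, and from 43.2-fold to 137-fold without WT replicate 1 or 84.4-fold to 269-fold without WT replicate 2, since fewer WT reads then set the limit.

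Among genes with a few WT reads, the widest gaps also belonged mostly to unnamed genes. GRMZM2G447795 measured 52.0 and 40.0 CPM in zmknl1 and 0.262 and 0.0852 CPM in WT. GRMZM2G162359 measured 50.4 and 41.2 CPM in zmknl1 and 0.262 and 0.341 CPM in WT. With GRMZM2G079962 these are the 3 genes of the set that edgeR called. GRMZM2G468111 measured 33.0 and 47.9 CPM in zmknl1 and 0.610 and 0.341 CPM in WT. GRMZM2G354579 measured 14.9 and 15.1 CPM in zmknl1 and 0.349 and 0 CPM in WT. These 4 genes had zmknl1 libraries within 2-fold of each other. GRMZM2G075315 did not: it measured 119 and 24.6 CPM in zmknl1 and 0.174 and 0.511 CPM in WT. In the same range, GRMZM2G098875 had 9.26 and 18.9 CPM in zmknl1 and 0.262 and 0.170 CPM in WT.

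Of the 10 genes with the highest mutant means, GRMZM2G075315, GRMZM2G447795 and GRMZM2G162359 are given above, and the other 7 had higher WT means than these. GRMZM2G073908 measured 127 and 181 CPM in zmknl1 and 0 and 11.4 CPM in WT, so the WT libraries themselves were far apart. GRMZM2G437435 showed the same split, with 46.3 and 78.8 CPM in zmknl1 and 0 and 5.88 CPM in WT. GRMZM2G091774 measured 44.3 and 61.3 CPM in zmknl1 and 0 and 1.88 CPM in WT. All 3 had no read in WT replicate 1, while WT replicate 2 held 134, 69 and 22 reads. GRMZM2G134708 measured 94.8 and 83.3 CPM in zmknl1 and 5.49 and 10.1 CPM in WT. GRMZM2G178546 measured 85.1 and 56.8 CPM in zmknl1 and 14.0 and 5.63 CPM in WT, the highest WT value in the set. Its WT libraries stood in the opposite order to those of GRMZM2G134708. GRMZM2G135960 measured 32.7 and 102 CPM in zmknl1 and 1.66 and 5.97 CPM in WT, and AC205471.4_FG007 47.6 and 53.5 CPM in zmknl1 and 11.1 and 4.01 CPM in WT.

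A WT value of exactly 0 in a single library was common in the set. It occurred in 17 of the 66 genes, 10 times in WT replicate 1 and 7 times in WT replicate 2. A count of 0 allows a level of up to 0.131 CPM in WT replicate 1 and 0.256 CPM in WT replicate 2 (3 counts, counting error only). Of the 60 genes with a WT count, 36 had their higher WT value in replicate 2 and 24 in replicate 1.

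Only 10 of the 66 genes carry a gene name rather than a clone or marker name in the RefSeq table of the Zm-B73-REFERENCE-NAM-5.0 assembly, where they stand as synonyms; 56 carry none. These 10 were named after their values were seen. They include 3 transporter genes, 3 genes known from defence and its signalling, a gene induced by herbicide safeners and a transcription factor gene. The other two, HIT2 and inra2(prp), are given by name only.

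**Figure D2:**
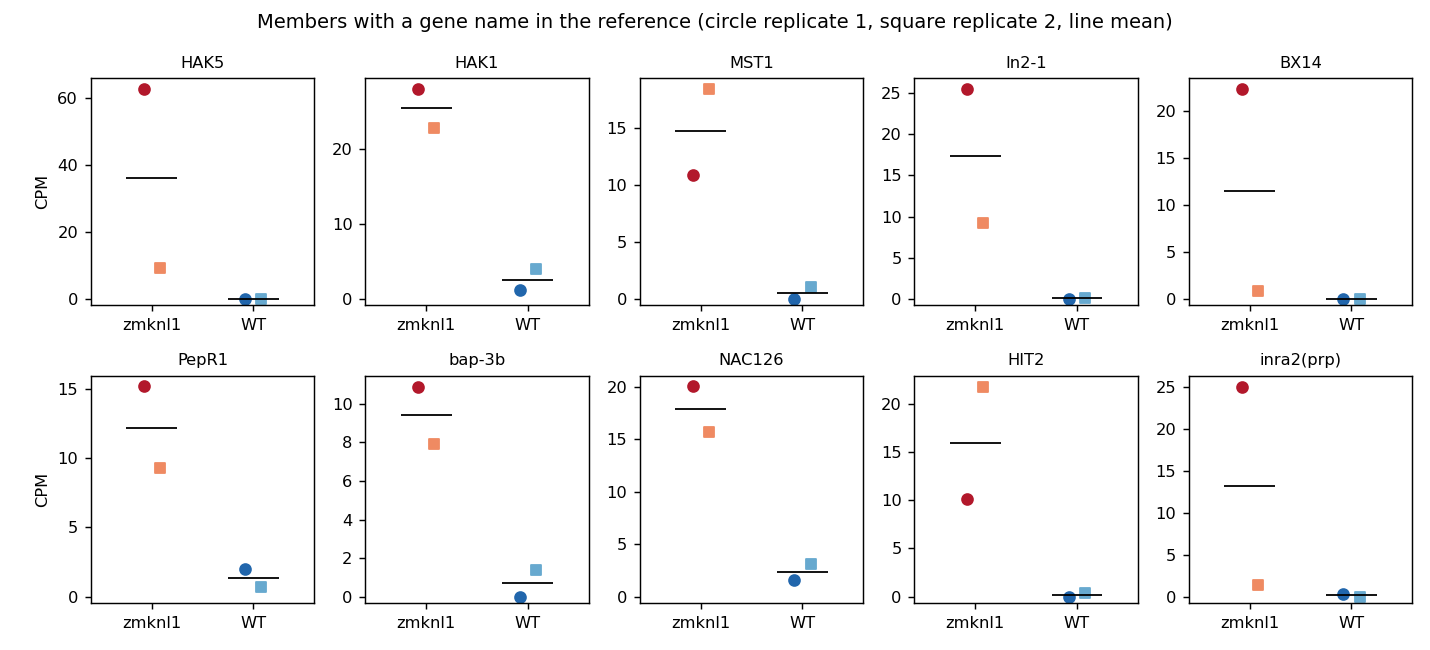
CPM (y axis, linear, a scale of its own in each panel) of the 10 members with a gene name in zmknl1 and WT kernels; circles are replicate 1, squares replicate 2 and lines the mean of 2 libraries. HAK5, BX14 and inra2(prp) have 1 high and 1 low zmknl1 library, while the zmknl1 libraries of HAK1, NAC126 and bap-3b lie close together.

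Potassium transporters of the HAK family, which carry potassium into cells, supplied 2 members. HAK5 (GRMZM2G084779, also kup1) measured 62.8 and 9.35 CPM in zmknl1 and 0.0436 and 0.0852 CPM in WT. Its mutant libraries were 6.72-fold apart, and even the lower was 110-fold above the higher WT library. HAK1 (GRMZM2G093826) measured 28.0 and 22.7 CPM in zmknl1 and 1.18 and 3.92 CPM in WT, with means of 25.4 ± 3.78 and 2.55 ± 1.94 CPM (SD, n = 2 each). The zmknl1 libraries of HAK1 lay close together and its WT libraries did not; the gap between the genotypes follows from the rule.

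The rest of the HAK family did not move as a block. The reference gave 23 HAK IDs, and of the 21 that are not members 15 were tested. Both zmknl1 libraries lay above both WT libraries in 4 of them and below in 3, where 22.2% and 19.7% of all tested genes did so. edgeR called 0 of the 15, with 3 at an unadjusted p under 0.05 (of all tested genes, 4.94% were so listed as higher and 5.30% as lower), and their median log2 fold change was 0.23. DESeq2 called 1 higher, HAK17 (GRMZM2G088964), against 1.59% of all genes. HAK17 measured 2.06 and 2.80 CPM in zmknl1 and 0 and 0.0852 CPM in WT. DESeq2 called 2 lower, against 2.03% of all genes. HAK8 (GRMZM2G173387) measured 2.46 and 0.799 CPM in zmknl1 and 24.9 and 18.8 CPM in WT, and HAK11 (GRMZM2G005040) 0.263 and 0.0400 CPM in zmknl1 and 7.02 and 4.52 CPM in WT. Thus some HAK genes stood high and others low in the same mutant kernels. The more abundant HAK14 (GRMZM2G139931) had 119 and 97.5 CPM in zmknl1 and 89.2 and 112 CPM in WT, with overlapping genotypes.

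MST1 (GRMZM2G135739, also mstr1), a monosaccharide transporter gene, measured 10.9 and 18.4 CPM in zmknl1 and 0 and 1.02 CPM in WT. The other ID with an MST name, MST2 (GRMZM2G141034), had 0 counts in all 4 libraries, so there was nothing to compare with it.

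**Figure D3:**
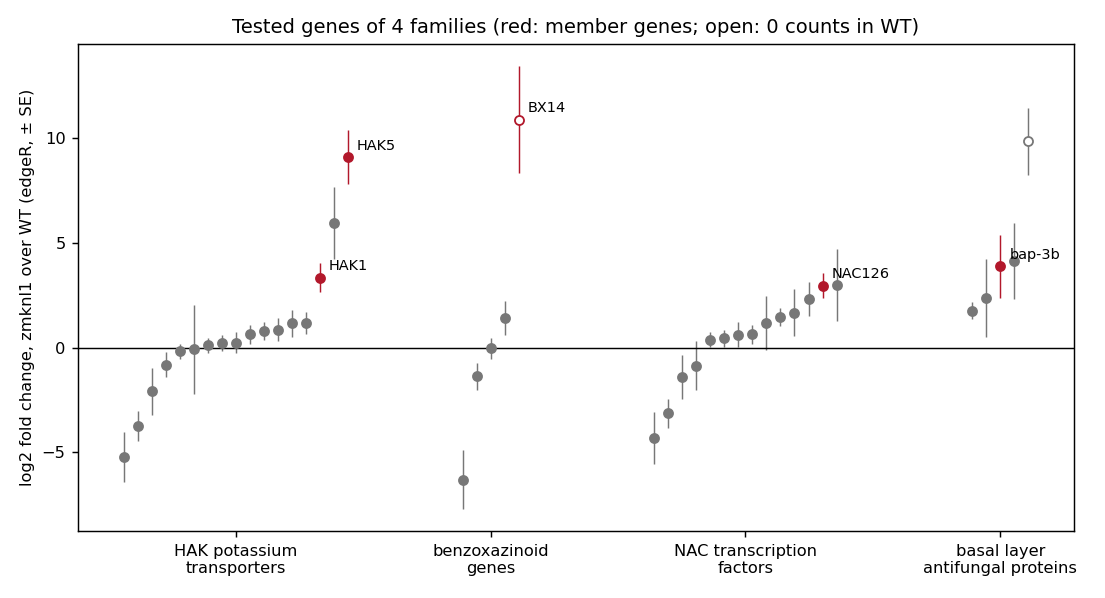
Log2 fold change of zmknl1 over WT from edgeR (y axis, ± SE) for every tested gene of 4 families, with members in red and genes without a WT count as open circles, whose fitted values depend on edgeR's prior count and are no bound. HAK and NAC genes spread to both sides of 0, and all 5 basal layer antifungal protein genes lie above it.

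Benzoxazinoid synthesis supplied 1 member. BX14 encodes a methyltransferase that modifies benzoxazinoid glucosides late in the pathway, and its values are given above. Of the 8 other named IDs of the pathway, 4 were tested; 1 lay above and 2 below both WT libraries (22.2% and 19.7% of all tested genes), and their median log2 fold change was -0.70. edgeR called 0 of them, with 1 lower at an unadjusted p under 0.05, against 5.30% of all tested genes in that direction. DESeq2 called 1 lower, against 2.03% of all genes: BX5 (GRMZM2G063756), a cytochrome P450 of the core pathway, at 0.263 and 0.0400 CPM in zmknl1 and 22.0 and 2.47 CPM in WT. The glucosyltransferase gene bx8 (GRMZM2G085054) measured 19.7 and 30.5 CPM in zmknl1 and 2.44 and 16.5 CPM in WT, while bx9 (GRMZM2G161335), another glucosyltransferase gene, had 9.22 and 15.8 CPM in zmknl1 and 13.1 and 12.5 CPM in WT. The gene for the first committed step, bx1 (GRMZM2G085381), had 0 CPM in both zmknl1 libraries and 0 and 0.0852 CPM in WT. The late gene BX14 was thus detected in zmknl1 kernels in which bx1 had no read.

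PepR1 (GRMZM2G011806), named for a receptor of plant elicitor peptides, which signal wounding and attack, measured 15.2 and 9.27 CPM in zmknl1 and 2.01 and 0.682 CPM in WT. The gene overlaps another gene in the reference assembly, which is newer than the one used for counting. The strand setting of the counting was not given, so whether reads of the neighbour entered its count is not known. The same holds for HAK5, GRMZM2G075563 and GRMZM2G169967. In all, 4 of the 47 placed members (8.51%) overlap another reference gene, against 8.63% of all placed genes with a mean CPM of 5 or more.

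The gene bap-3b (GRMZM2G133370) belongs to the basal layer antifungal proteins, small secreted proteins of the transfer layer. It measured 10.9 and 7.91 CPM in zmknl1 and 0 and 1.36 CPM in WT. Its 4 named relatives all lay above both WT libraries in both zmknl1 libraries, as did 22.2% of all tested genes. The nearest by name, bap-3a (GRMZM2G133382), is also the next gene with a count ID in the reference order, and it measured 4.21 and 6.99 CPM in zmknl1 and 0 in both WT libraries. It was left out of the set by its mean level. The most abundant of the family, bap2 (GRMZM2G152655), measured 67.9 and 58.6 CPM in zmknl1 and 15.7 and 21.3 CPM in WT. DESeq2 called both bap-3a and bap2 higher, against 1.59% of all genes. bap-1a (GRMZM2G008271) and bap1-b (GRMZM2G008403) measured 1.27 and 1.44 CPM and 1.05 and 0.600 CPM in zmknl1, against 0 and 0.170 CPM and 0 and 0.341 CPM in WT. edgeR called 0 of the 4 relatives, with 2 higher at an unadjusted p under 0.05, against 4.94% of all tested genes. Copies of this family are close in sequence, and reads that fit several copies were not counted, so single values are uncertain. The summed transfer layer markers given above moved the same way (bap2 stands in that list too), and their part in this result was not tested. That list is not independent of the rule. Its genes betl4 and meg1 are left-out IDs with ratios of 6.56 and 5.56 between the nearest libraries, and mn1 had 5.95.

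In2-1 (GRMZM2G042639, also saf1), a gene known for its induction by herbicide safeners, measured 25.5 and 9.23 CPM in zmknl1 and 0 and 0.170 CPM in WT. In2-2 (GRMZM2G020631), the other gene of that naming series, had 4.78 and 7.55 CPM in zmknl1 and 3.10 and 2.73 CPM in WT, with no call by edgeR or DESeq2 (adjusted p = 0.695 and 0.721). Both genes lay above WT in both zmknl1 libraries, with a far wider gap in In2-1.

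GRMZM2G018436, listed as NAC126 and NAC12, is a transcription factor gene of the NAC family, which acts in senescence, stress and seed filling in plants. It measured 20.1 and 15.7 CPM in zmknl1 and 1.57 and 3.07 CPM in WT, or 17.9 ± 3.08 and 2.32 ± 1.06 CPM (SD, n = 2 each). Of 26 other named NAC IDs, 13 were tested, of which 7 lay above and 3 below both WT libraries (22.2% and 19.7% of all tested genes). edgeR called 0 of these, with 4 at an unadjusted p under 0.05, and their median log2 fold change was 0.62. Of the 4, NAC61 and GRMZM2G347043 were higher and NAC78 and nac5 lower. Of all tested genes, 4.94% were so listed as higher and 5.30% as lower. DESeq2 called 0 higher and 2 lower, against 1.59% and 2.03% of all genes. NAC78 (GRMZM2G406204) measured 0.966 and 2.00 CPM in zmknl1 and 16.6 and 9.63 CPM in WT, and nac5 (GRMZM2G041746) 0.176 and 0.160 CPM in zmknl1 and 5.23 and 1.62 CPM in WT. Another gene listed as NAC12 (GRMZM2G125777) had 101 and 73.1 CPM in zmknl1 and 66.7 and 66.1 CPM in WT, so the shared name covers 2 genes with different gaps.

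HIT2 (GRMZM2G126765) measured 10.1 and 21.8 CPM in zmknl1 and 0 and 0.426 CPM in WT. inra2(prp) (GRMZM2G117989) measured 25.1 and 1.40 CPM in zmknl1 and 0.305 and 0 CPM in WT, which places it among the genes carried mainly by zmknl1 replicate 1.

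The agreement of the zmknl1 libraries within the 66 genes is given as a description. A member could reach the limit on the mean through zmknl1 alone, in some cases through replicate 1 alone, so no contrast with other genes is drawn from the shares printed beside it. The zmknl1 libraries lay within 2-fold of each other in 43 of the 66 genes (65.2%), against 86.2% of genes with a mean CPM of 5 or more and a read in zmknl1. Replicate 1 was over 4-fold above replicate 2 in 10 members (15.2%), against 1.21% of those genes, and replicate 2 was over 4-fold above replicate 1 in 0 members, against 0.592%. The lean was toward replicate 1 in 44 of the 66 genes (66.7%), against 51.3%. Besides the 3 WT-silent genes above, inra2(prp) was over 10-fold higher in replicate 1, at 17.9-fold. The remaining 6 were HAK5, GRMZM2G075315, GRMZM2G107228, GRMZM2G354909, AC214360.3_FG001 and GRMZM2G116520, at 4.25 to 6.72-fold. GRMZM2G107228 measured 20.3 and 3.84 CPM in zmknl1 and 0.305 and 0 CPM in WT, and GRMZM2G354909 22.2 and 5.08 CPM in zmknl1 and 0.262 and 0 CPM in WT. Among the aleurone markers, rab17 (GRMZM2G079440), a dehydrin gene induced by abscisic acid and drying, was split in the same direction in both genotypes. It measured 25.5 and 0.0400 CPM in zmknl1 and 5.97 and 0.0852 CPM in WT, with 1 read in each replicate 2 library. On the same list vp1, dek1 and cr4 were also higher in replicate 1 in both genotypes, by less. The markers nkd1 and nkd2 were higher in replicate 2 in both genotypes, so the list did not lean as a whole. The relation of rab17 to the 10 genes was not tested.

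**Figure D4:**
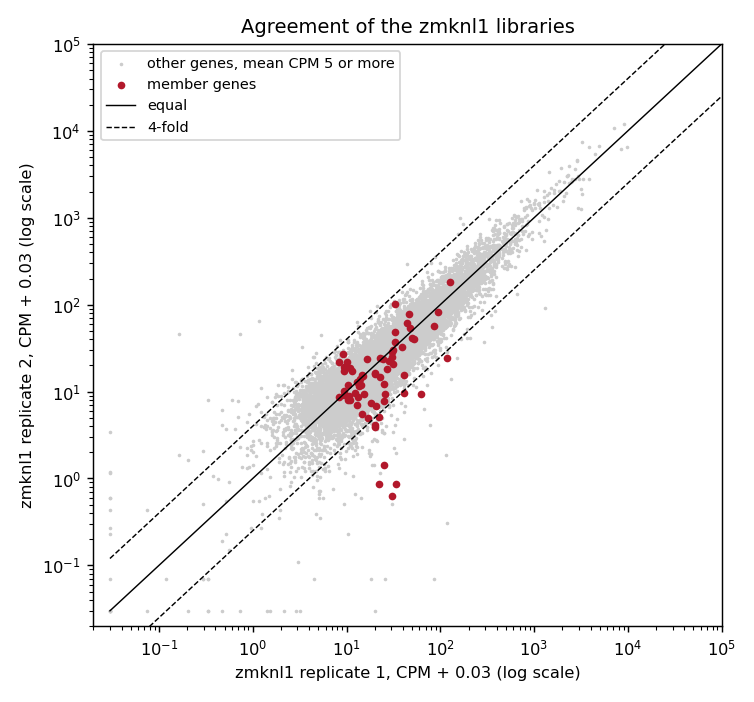
zmknl1 replicate 1 (x axis) against zmknl1 replicate 2 (y axis), both as CPM + 0.03 on log axes, for the 66 genes (red) and other genes with a mean CPM of 5 or more (grey); the solid line marks equality and the dashed lines 4-fold. In all, 10 red points lie over 4-fold toward replicate 1 and 0 toward replicate 2.

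Several members had zmknl1 libraries close to each other. GRMZM2G090043 measured 31.1 and 30.3 CPM in zmknl1 and 3.05 and 4.26 CPM in WT. GRMZM2G137321 measured 38.6 and 32.1 CPM in zmknl1 and 1.70 and 1.88 CPM in WT, and GRMZM5G862355 22.6 and 24.4 CPM in zmknl1 and 0.349 and 1.19 CPM in WT. In 35 of the 66 genes the zmknl1 libraries were within 1.5-fold of each other. Among these, GRMZM2G461791 measured 12.8 and 12.9 CPM in zmknl1 and 2.09 and 2.39 CPM in WT, and GRMZM2G009854 9.44 and 8.99 CPM in zmknl1 and 1.0 and 1.19 CPM in WT. GRMZM2G334336 measured 19.9 and 16.4 CPM in zmknl1 and 0.828 and 1.02 CPM in WT, and GRMZM2G095280 14.6 and 15.3 CPM in zmknl1 and 1.57 and 1.02 CPM in WT. In these 4 genes the WT libraries lay within 2-fold of each other. GRMZM2G072671 was even in zmknl1, at 14.0 and 13.9 CPM, but not in WT, at 0.698 and 2.64 CPM. GRMZM2G136300 likewise had 24.8 and 23.5 CPM in zmknl1 and 0.916 and 5.63 CPM in WT.

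The limit of 4 cut through a continuous range. Just inside it, GRMZM2G017414 measured 8.21 and 8.67 CPM in zmknl1 and 1.13 and 2.05 CPM in WT, a ratio of 4.01 between the nearest libraries. The next 4 inside, GRMZM2G015869, GRMZM2G178546, GRMZM2G010933 and GRMZM2G147014, had ratios of 4.06 to 4.12. Just outside, GRMZM2G031925 measured 17.3 and 21.7 CPM in zmknl1 and 1.40 and 4.35 CPM in WT, a ratio of 3.99, and GRMZM2G124417, GRMZM2G569948, GRMZM2G064541 and GRMZM2G003883 followed at 3.98 to 3.92. On the level limit, GRMZM2G017414 again and GRMZM2G133370 lay just inside, and GRMZM2G057328, at 7.94 and 10.3 CPM in zmknl1 and 0.392 and 1.11 CPM in WT, just outside. Genes on either side of the limits thus had similar values.

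In the reference assembly 47 of the 66 genes (71.2%) could be placed, all protein-coding, against 75.6% of all genes with a mean CPM of 5 or more. Chromosome 10 held 8 of the 47 (17.0%), against 6.51% of the placed genes at that level. Chromosome 9 held 6 (12.8% against 7.13%) and chromosome 1 held 4 (8.51% against 15.6%). The 8 genes on chromosome 10 include GRMZM2G073908, GRMZM2G437435, GRMZM2G091774 and bap-3b, which are 4 of the 10 genes with no read in WT replicate 1 alone. The others are GRMZM2G075315, GRMZM2G121137, GRMZM2G015869 and GRMZM2G017414, all with reads in both WT libraries. These are counts over few genes, read from a newer assembly than the one the reads were aligned to, and no test was made of them.

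**Figure D5:**
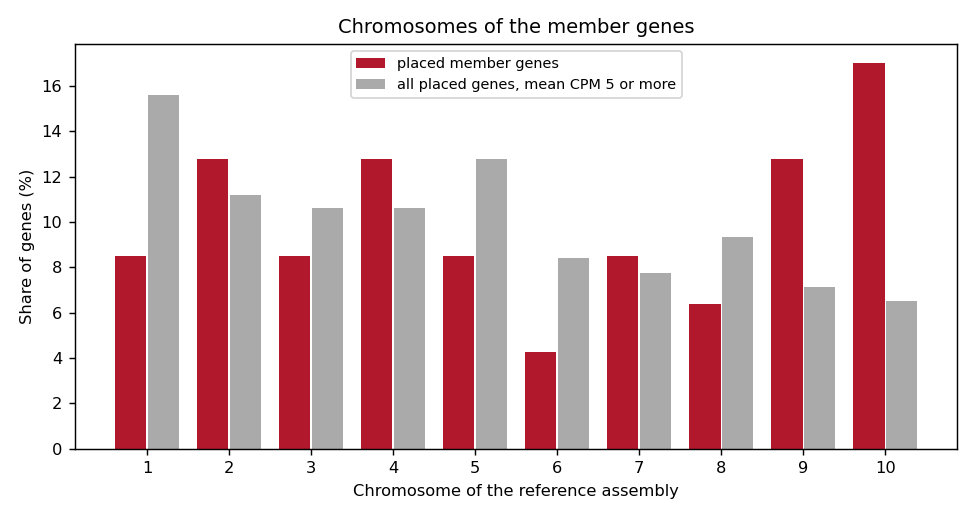
Share of genes on each chromosome of the Zm-B73-REFERENCE-NAM-5.0 assembly (y axis, percent) for the 47 placed members (red) and all placed genes with a mean CPM of 5 or more (grey). Chromosome 10 shows the widest gap, 17.0% against 6.51%.

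No member followed another directly in the order of genes that have a count ID. The closest pair, GRMZM2G354909 and GRMZM2G136486 on chromosome 2, stood 2 steps apart, and the next closest, bap-3b and GRMZM2G121137 on chromosome 10, 14 steps. Also on chromosome 10, GRMZM2G015869 and GRMZM2G437435 stood 19 steps apart, GRMZM2G437435 and GRMZM2G073908 92, and GRMZM2G073908 and GRMZM2G091774 39. Of these, GRMZM2G437435, GRMZM2G073908 and GRMZM2G091774 had no read in WT replicate 1. The widest step between successive members, on chromosome 1, was 1878. Whether members lie closer together than other genes was not tested. GRMZM2G136486 measured 12.9 and 6.91 CPM in zmknl1 and 0 and 0.767 CPM in WT. GRMZM2G121137 measured 40.6 and 15.5 CPM in zmknl1 and 2.27 and 1.70 CPM in WT.

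Genes directly beside a member, which the rule did not use, had a median near that of all tested genes. The 61 tested neighbours had a median log2 fold change of 0.13, against 0.01 over all tested genes. Both zmknl1 libraries lay above both WT libraries in 16 of them (26.2%, against 22.2%) and below in 5 (8.20%, against 19.7%). edgeR called 0 of the neighbours, against 0.0205% of all tested genes. DESeq2 called 3 higher and 0 lower, against 1.59% and 2.03% of all genes. The 3 are bap-3a, bap2, which lies beside GRMZM2G027472 on chromosome 4, and HP3 (GRMZM2G451604). HP3 encodes a histidine phosphotransfer protein, a relay of cytokinin signalling, and lies beside GRMZM2G134708. It measured 54.7 and 69.0 CPM in zmknl1 and 15.3 and 21.6 CPM in WT. Over the next 3 genes on either side, 199 were tested, with 53 (26.6%) above and 31 (15.6%) below. Of these, DESeq2 called 4 higher and 4 lower, so the low share below held less in the wider window. Members and left-out IDs were not counted as neighbours.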

How the data were processed

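The deposited tables hold raw read counts per gene, which the authors did not normalize, for 4 libraries. Per the submitters' processing notes, the authors used Trimmomatic 0.36, HISAT2 2.0.1, the B73 RefGen_v3 genome and HTSeq. The sources used here give no mode or strand setting of the counting. Summary lines for reads not assigned to a gene, which held 35.8 to 47.8% of each library's counts, were left out. CPM used edgeR 4.0.16 TMM factors over all gene IDs, in R 4.3.3. Genes kept by filterByExpr (19519) were tested by edgeR's quasi-likelihood F-test, two-sided, without covariates, with Benjamini-Hochberg adjustment at 0.05. The common biological coefficient of variation was 0.536. DESeq2 1.42.0 (adjusted p missing for 757 genes) and limma 3.58.1 with voom were alternatives, as were other scalings, filters, limits, a replicate block and left-out libraries. The tests were also run on simulated counts with a smaller spread between replicates than in these data. That run checked the code and cannot show how well the tests perform here. The replicates of a genotype were not copies of each other. They differed by a chi-square of 70.0 per degree of freedom in zmknl1 and 344 in WT, where sampling noise gives about 1. SDs rest on n = 2.

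The members, marker lists, gene families and rule for named genes were chosen with earlier results of these data known. That rule took members with a symbol of their own in the reference (none had one), the 15 largest ratios, the 10 highest zmknl1 means, the 5 genes on either side of the limit, adjacent members and the 5 with the widest gap between zmknl1 libraries. Of 39625 IDs, 19060 (48.1%) matched the reference, which belongs to another assembly; its order served only to find neighbours. Protein relatives and product classes, planned at first, were not analysed here. Where WT had 0 counts, the fold is a lower bound that takes 3 counts in the pooled WT libraries.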

Additional observations from a re-analysis of the deposited data

How the results depend on the processing

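Against 66 genes under the rule as given, 69 passed with DESeq2 size factors and 66 with TMM after the low-count filter. Plain library sizes gave 120 genes, a mean CPM limit of 1 gave 272 and of 20 gave 11, and a ratio of 3 gave 105 and of 8 gave 31. All 66 remained under the 3 scalings. With a library left out the number ran from 63 to 449. It was 63 without zmknl1 replicate 1, 132 without zmknl1 replicate 2, 156 without WT replicate 1 and 449 without WT replicate 2. Of these, 37, 50, 66 and 66 were among the 66, and 30 members remained each time. At unchanged scaling, leaving out a library cannot lower the ratio of a member, and leaving out a WT library raises its mean. Keeping all 66 without either WT library was thus fixed by the rule. Leaving out a zmknl1 library lowers the mean that the level limit reads, and members are lost through that limit. These counts are therefore no check of how stable the set is.

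edgeR called 4 genes in all. Without a low-count filter it called 715, DESeq2 called 679 and limma-voom 0 (2183 at an unadjusted p under 0.05); the cause was not tested. Leaving out libraries gave 19 to 805 calls: 19 without zmknl1 replicate 1, 35 without zmknl1 replicate 2, 166 without WT replicate 1 and 805 without WT replicate 2. With the replicate number as a block there were 642 calls, 59 of them members. The numbers are not stated to pair ears; the differences of replicate 1 from 2 correlated across genes between the genotypes at 0.43. Over 32 named members, 0 of 320 log2 fold changes fell below 0, and 36 moved by over 1 SE. The rule chose these genes for that direction, so the sign says nothing further about them. The neighbours' median of 0.13 ran from 0.08 to 0.31 with a library left out, the highest without WT replicate 2. Having 2 libraries per genotype limits every value.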

Other observations

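Below the level limit, 1282 further genes met the ratio of 4 with a read in both zmknl1 libraries and a mean under 5 CPM, 203 of them with a mean of 1 CPM or more. Of these 203, 58 had no read in WT. The 5 with the highest lower zmknl1 value among the genes without a WT read, chosen after their values were seen, were expB7, GRMZM2G077040, GRMZM2G129189, GRMZM2G161310 and bap-3a. expB7 (GRMZM2G342246), named as a beta-expansin, a protein that loosens cell walls, measured 6.28 and 7.03 CPM in zmknl1 and 0 in both WT libraries. GRMZM2G077040 measured 6.23 and 5.60 CPM in zmknl1 and GRMZM2G129189 8.25 and 5.20 CPM, again with no WT read. GRMZM2G161310 measured 14.4 and 4.76 CPM in zmknl1 and 0 in WT, and missed the level limit narrowly.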
